A study of Homo sapiens with 172 samples.

Results

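CHL1, CNTN6 and CNTN4 are neural adhesion genes that follow each other near the tip of the short arm of chromosome 3, with no other coding gene between them in RefSeq. Their contact with the nuclear lamina was described in single KBM7 cells beside that of 3 more contactin genes, CNTN3 farther along chromosome 3, CNTN1 on chromosome 12 and CNTN5 on chromosome 11. The members were the 40 bins of 100 kb that overlap these 6 genes in hg19, out of 26414 covered bins: 17 bins of CHL1, CNTN6 and CNTN4, and 23 bins of CNTN3, CNTN1 and CNTN5. The other 33 bins of the first 5 Mb of chromosome 3 served as their surroundings. The genes were chosen by their contact frequencies in these same cells, so all frequencies are given as a description and no test was made on them.

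All 172 labelled samples belong to 1 group, single cells of clone 5-5 of KBM7, which is a leukaemia line of human origin and near-haploid (labelled 1N). The cells carried the DNA adenine methyltransferase Dam fused to LaminB1, a protein of the lamina, and methylation was induced with 0.5 nM Shield1 for 15 h. Sorted cells were the smallest 2% of those that showed both Fucci reporters, which mark phases of the cell cycle. The whole group is 1 clone with no cells lacking the fusion and no separate cultures named, so every SD is the spread between cells, not an error between replicates.

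The nuclear lamina lines the inner face of the nuclear envelope, and long gene-poor stretches of chromosomes with mostly silent genes tend to lie against it. Contactins are immunoglobulin-domain adhesion proteins held to the neuronal surface by a lipid anchor, and they act in axon growth and in contacts between neurons and glia. CHL1, close homolog of L1, is a transmembrane adhesion protein of the L1 family and takes part in neurite outgrowth and neuronal migration. All are known mainly from the nervous system, while KBM7 is of blood origin. No expression was measured here.

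The 3 genes at the tip of chromosome 3 are long and differ in the base composition just upstream of their starts. In RefSeq (GRCh38.p14) CHL1 spans 0.213 Mb, CNTN6 0.311 Mb and CNTN4 0.959 Mb, and 6.36%, 3.61% and 0.389% of 20056 coding genes are at least as long as CHL1, CNTN6 and CNTN4 in that order. CNTN3 spans 0.352 Mb, CNTN1 0.380 Mb and CNTN5 1.34 Mb, and only 0.150% of coding genes are at least as long as CNTN5. The 250 bases before the outermost listed start of CHL1, CNTN6 and CNTN4 are printed to show how unlike these genes are at their starts although they share 1 stretch of lamina contact. They lie on the plus strand at chr3:196513-196762, chr3:1092774-1093023 and chr3:2098616-2098865 of GRCh38.p14. These coordinates were not set against the hg19 bins. Sequences run 5′ to 3′, and capitals mark CG, the pair of bases at which DNA methylation mostly occurs, which reads the same on both strands.
CHL1: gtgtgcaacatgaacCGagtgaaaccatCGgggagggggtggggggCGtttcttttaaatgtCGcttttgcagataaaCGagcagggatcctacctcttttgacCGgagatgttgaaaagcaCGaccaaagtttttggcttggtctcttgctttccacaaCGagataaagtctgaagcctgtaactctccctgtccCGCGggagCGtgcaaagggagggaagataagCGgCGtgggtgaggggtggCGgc
CNTN6: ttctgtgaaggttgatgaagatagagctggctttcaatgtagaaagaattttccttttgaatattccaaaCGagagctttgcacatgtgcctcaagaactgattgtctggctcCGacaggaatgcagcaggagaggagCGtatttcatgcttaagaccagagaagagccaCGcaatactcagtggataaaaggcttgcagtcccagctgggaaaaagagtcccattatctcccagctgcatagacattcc
CNTN4: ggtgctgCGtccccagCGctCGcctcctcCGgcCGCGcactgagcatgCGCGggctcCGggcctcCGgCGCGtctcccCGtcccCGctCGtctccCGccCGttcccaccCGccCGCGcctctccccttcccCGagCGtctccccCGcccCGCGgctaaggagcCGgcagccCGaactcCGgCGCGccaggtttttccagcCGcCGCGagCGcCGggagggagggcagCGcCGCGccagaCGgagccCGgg

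The sequence before CNTN4 holds 40 CG pairs at a GC content of 79.2%, that before CHL1 14 at 53.6% and that before CNTN6 only 4 at 45.2%. Over 35116 such sequences in the RefSeq table the median was 11 CG pairs and 58% GC, 93.9% held at least 1 CG, and 2.16% held at least as many as CNTN4. Among the other contactins, the sequence before CNTN3 holds 38 CG pairs, that before CNTN5 26 and that before CNTN1 5. For CNTN1 the nearest listed start lies inside the gene. The letters GATC, the site that Dam methylates and that reads the same on both strands, stand once in the sequence before CHL1 and in none of the other 5, while 35.8% of all such sequences hold them. RefSeq lists 3 such sequences for CHL1, 2 for CNTN4 and 1 for CNTN6, and only the outermost of each gene was counted. At these outermost starts the trio thus joins a sequence rich in CG, one near the median and one poor in CG.

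The table held 168 of the labelled samples as observed over expected ratios. Columns numbered 86 apart came from a single cell: for each of the 168 columns the most alike column was its partner, and the reads of 82 of the 84 pairs differed by less than sampling noise. Partners were averaged and counted as 1 cell, which leaves n = 84 cells. Reads in the deeper column of a cell ranged from 7134 to 418937 with a median of 63700. Contact was called where the ratio of a bin was 1 or more, and cells had 27.8% ± 6.55 of the covered bins in contact (SD, n = 84; range 14.5 to 42.4%). The 35 cells with at least 100000 reads, called deep cells here, had 31.4% ± 5.06 in contact, and the 49 others 25.1% ± 6.28.

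Most bins of the 6 genes were in contact in at least 50% of cells. Of the 40 member bins 37 (92.5%) reached that level, against 30.7% of all covered bins and 35% of the covered bins of chromosome 3. Since the genes were picked for their contact, nothing is read from this difference. The median contact frequency, the percent of the 84 cells in contact, was 69.0% over the 17 bins of CHL1, CNTN6 and CNTN4 (range 44.0 to 78.6%). It was 64.3% over the 23 bins of CNTN3, CNTN1 and CNTN5 (range 47.6 to 72.6%). Over chromosome 3 it was 25% and over all covered bins 16.7%. Over the rest of the first 5 Mb it was also 64.3%, but these 33 bins ranged from 1.19 to 78.6%. Of them 22 (66.7%) were in contact in at least 50% of cells, and their mean frequency was 49.4%. The call cuts through a continuous range of values. Of the 3360 values of member bins in single cells, 63.1% were in contact, 21.5% were above 0 but short of 1, and 15.4% were 0. The calls closest to the limit were 189 values from 0.75 to 1 and 194 from 1 to 1.25.

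CHL1, the one of the 6 nearest a chromosome end, had the lowest contact of the 6. Its 3 bins, 3:200001 to 500000, were in contact in 49.2% ± 41.5 of cells (mean over bins, SD over n = 84 cells). The mean ratio over the gene was 0 in the lowest cell, 1.06 in the median cell and 21.0 in the highest, cell 26. Cell 26 had only 12324 reads, and a ratio of 1 in its median bin stood for 0.516 reads, so its high ratios rest on few reads. In 26 cells no CHL1 bin was in contact, in 28 cells all 3 were, and 30 cells were in between, so most cells had either the whole gene or none of it in contact. CNTN3, also of 3 bins, was much the same, with no bin in 20 cells, all 3 in 32 and 32 in between. How the number of bins and reads bears on this split was not tested. Frequency was lowest in its first bin, 3:200001 to 300000, with 45.2% (38 cells, exact 95% interval 34.3 to 56.5%), and highest in its last, 3:400001 to 500000, with 52.4% (44 cells, 41.2 to 63.4%). These intervals overlap. Intervals here are Clopper-Pearson and cover counting error only.

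CNTN6, which codes for NB-3, a contactin known as a Notch ligand in the formation of oligodendrocytes in the mouse, stood highest of the 6. Its 4 bins, 3:1100001 to 1500000, were in contact in 68.5% ± 34.5 of cells (SD, n = 84). The mean ratio over the gene was 0.092 in the lowest cell, 2.02 in the median cell and 18.4 in the highest, cell 16. Cell 16 was also shallow, with 13034 reads and 0.514 reads at a ratio of 1 in its median bin. All 4 bins were in contact in 38 cells and none in 6. Its first bin, 3:1100001 to 1200000, was the lowest at 58.3% (49 cells, 47.1 to 69.0%). The bin at 3:1300001 to 1400000 was the highest at 77.4% (65 cells, 67.0 to 85.8%), a frequency at percentile 98.9 of all covered bins.

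CNTN4, BIG-2, a contactin known in the mouse for guiding olfactory axons, was in contact almost as often. Its 10 bins, 3:2100001 to 3100000, averaged 67.1% ± 31.7 of cells (SD, n = 84). The mean ratio over the gene was 0.0685 in the lowest cell, 1.99 in the median cell and 15.4 in the highest, again the shallow cell 16. All 10 bins were in contact in 21 cells and none in 3, and the other 60 cells had part of the gene in contact. The bin at 3:2500001 to 2600000 was the highest at 78.6% (66 cells, 68.3 to 86.8%), and the last bin, 3:3000001 to 3100000, the lowest at 44.0% (37 cells, 33.2 to 55.3%). The intervals of these bins do not overlap. They were picked as the extremes of the gene, which widens the gap between them.

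The contactins elsewhere lay within the range of the trio. CNTN3, BIG-1, had 58.3% ± 40.0 of cells in contact over its 3 bins, 3:74300001 to 74600000 (SD, n = 84), and its mean ratio had a median of 1.67 and a range from 0 to 13.2. The interval taken for CNTN3 covers less than the RefSeq gene. CNTN1, contactin-1 or F3, which pairs with Caspr at the junctions beside the nodes of Ranvier, had 56.2% ± 38.3 over 5 bins, 12:41000001 to 41500000, with a median ratio of 1.61 and a range from 0 to 9.61. CNTN5, NB-2, known for its part in the auditory system of rodents, had 65.0% ± 33.0 over 15 bins, 11:98800001 to 100300000, with a median ratio of 1.85 and a range from 0 to 7.07. The lowest and highest bins were 47.6% at 3:74300001 to 74400000 and 70.2% at 3:74500001 to 74600000 in CNTN3. They were 50% at 12:41200001 to 41300000 and 64.3% at 12:41000001 to 41100000 in CNTN1. In CNTN5 the lowest bin was 58.3% at 11:98800001 to 98900000, and the highest value, 72.6%, was reached at 11:99200001 to 99300000 and at 11:100100001 to 100200000. Cells 69 and 79 had 0.647% and 3.32% of the reads expected on chromosome 12, so their calls on CNTN1 rest on few reads, and CNTN1 had 58.3% without cells 63, 69 and 79.

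From high to low the order was CNTN6, CNTN4, CNTN5, CNTN3, CNTN1 and CHL1. No neighbours in this order differed by more than the spread between cells, and neither did its highest and lowest gene, CNTN6 and CHL1. That spread is not the error of a mean difference, so it does not show which genes differ. CNTN6 exceeded CNTN4 by 1.31 ± 24.4 percentage points within cells, CNTN4 exceeded CNTN5 by 2.14 ± 41.1, and CNTN3 exceeded CNTN1 by 2.14 ± 49.5 (SD, n = 84). CNTN3 minus CNTN5 was -6.67 ± 48.2 points. CHL1 minus CNTN1, its neighbour in the order, was -6.98 ± 48.3 points, with CHL1 higher in 28 cells, CNTN1 higher in 37 and 19 equal. CHL1 was below CNTN6 by a mean of 19.2 points (CHL1 minus CNTN6 -19.2 ± 38.5), with CHL1 higher in 16 cells, CNTN6 higher in 44 and 24 equal. CHL1 minus CNTN4 was -17.9 ± 33.9 points, with CHL1 higher in 21 cells and CNTN4 in 46. Over all their bins, CHL1, CNTN6 and CNTN4 together averaged 64.3% ± 30.2 per cell and CNTN3, CNTN1 and CNTN5 62.2% ± 25.5. The difference was 2.07 ± 33.7 points, with 41 cells higher on each side and 2 equal, and its sign turned in the cells with odd numbers (-0.907 points).

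**Figure D1:**
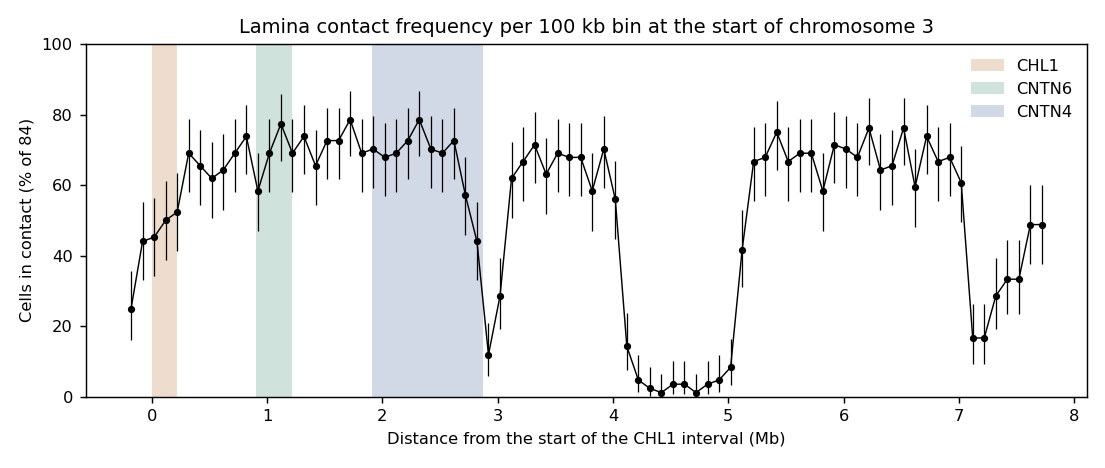
Percent of 84 cells in contact (y axis) for each 100 kb bin at the start of chromosome 3, by distance in Mb from the start of the CHL1 interval (x axis), with exact 95% intervals as bars and the 3 genes shaded. Frequency lies between 58.3 and 78.6% from the bin after CHL1 to 0.2 Mb before the end of CNTN4, drops to 11.9% just after CNTN4, returns to 56 to 71.4% and then falls to 1.19% at its lowest.

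The plot of frequency along the chromosome shows CHL1 on a slope. Bins at 3:100001 to 500000, which are CHL1 and the bin before it, had between 44.0 and 52.4% of cells in contact. The first bin of the chromosome had 25%, but its expected number, counted in the steps by which ratios rise with each read, was only 27 against a median of 316 over bins, so it is the least certain value of the stretch. Directly after CHL1, the 6 bins up to CNTN6 averaged 67.3% ± 32.9 of cells (61.9 to 73.8%), and the 6 bins between CNTN6 and CNTN4 72.0% ± 31.1 (65.5 to 78.6%). The spaces between the genes were therefore near the level of CNTN6 and CNTN4, and CHL1 was below both spaces. The 3 bins of CHL1 had expectations from 327 to 403 steps and the 17 bins of the trio from 302 to 403.

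CNTN4 was not evenly in contact along its length. Its first 8 bins averaged 71.3% of cells (67.9 to 78.6%), and its last bins, 3:2900001 to 3100000, had 57.1 and 44.0%. Frequency went below 50% in that last bin and below 20% in the next, 3:3100001 to 3200000, where 11.9% of cells were in contact (10 cells, 5.86 to 20.8%). The bin after it had 28.6% (24 cells, 19.2 to 39.5%). This gap was 0.2 Mb wide. Beyond it a further 1 Mb of contact, 3:3300001 to 4300000, averaged 65.2% (56.0 to 71.4%).

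The contacted chromosome end then stopped sharply. Over the 10 bins from 3:4300001 to 5300000 the mean was 4.76% ± 9.50 of cells (1.19 to 14.3%), and the bins on each side of 4.3 Mb did not overlap in their intervals, with 14.3% (7.61 to 23.6%) after it and 56.0% (44.7 to 66.8%) before it. Contact resumed over 3:5400001 to 7300000 at a mean of 68.0%. In RefSeq the coding genes after CNTN4 are, in order, IL5RA, TRNT1, CRBN, LRRN1, SUMF1, SETMAR, ITPR1 and BHLHE40. IL5RA is a receptor subunit for interleukin-5, TRNT1 completes transfer RNAs, CRBN is the cereblon subunit of a ubiquitin ligase, ITPR1 is a calcium release channel and BHLHE40 a transcription factor. Which of them lies in the gap or in the low stretch was not analysed here, since the gene table is of another build than the bins.

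**Figure D2:**
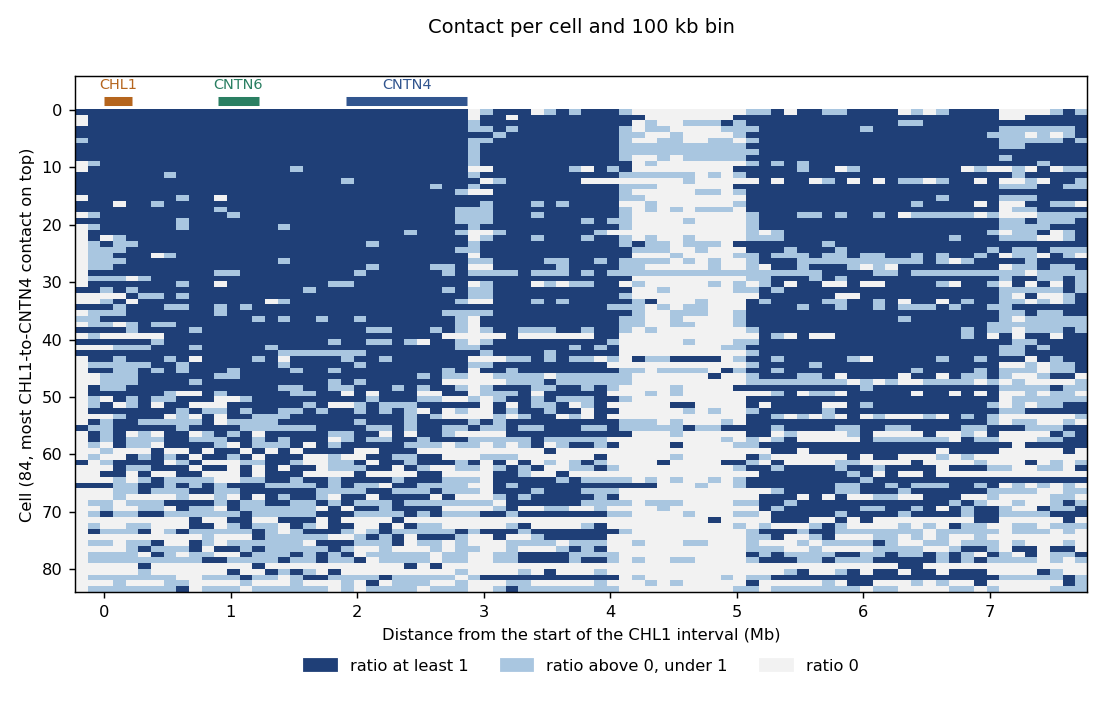
Calls of all 84 cells (rows, ordered from the most to the least contact between CHL1 and CNTN4) in each 100 kb bin of the first 8 Mb of chromosome 3 (x axis, distance in Mb from the start of the CHL1 interval), with dark blue for a ratio of at least 1, light blue for a ratio above 0 and under 1, and grey for 0. In 29 of the 56 cells with contact on both sides of the gap after CNTN4 neither of its bins is in contact, and the stretch 4.1 to 5.1 Mb from CHL1 is nearly empty throughout.

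The map of single cells shows the calls at the gap cell by cell. The first 8 bins of CNTN4 and the block after the gap both had a mean ratio of at least 1 in 56 of 84 cells. In these 56 cells the first bin of the gap was in contact in 10 (17.9%, 8.91 to 30.4%), the second in 21 (37.5%, 24.9 to 51.5%), and neither in 29 (51.8%). Only the CNTN4 side was in contact in 14 cells, only the block after the gap in 8, and neither side in 6. In the 28 deep cells with both sides in contact, the median ratio was 0.290 in the first gap bin and 0.951 in the second, against 2.57 over the CNTN4 bins and 2.89 over the block beyond. The first gap bin was in contact in 4 of these 28 cells (14.3%) and the second in 14 (50%). All 10 cells with the first gap bin in contact thus had contact on both sides. That bin was picked for its low frequency, 11.9% of all 84 cells. Its being below the limit in most of the 56 cells, and of the 28 deep ones, was therefore fixed beforehand. It does not show whether the gap is a feature of each cell or of the average.

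Cells varied from almost no contact to full contact over the 29 bins from CHL1 to the end of CNTN4. The share of these bins in contact was 3.45% in the lowest cell, 75.9% in the median cell and 100% in the highest, with a mean of 66.5% ± 29.1 (SD, n = 84). It was over 80% in 37 cells and under 20% in 7, and the remaining 40 cells lay between. The longest unbroken run of contact in a cell had a median of 1.2 Mb and reached all 2.9 Mb in 10 cells. Depth moved with these values. The mean was 79.1% ± 24.7 in the 35 deep cells, of which 22 were over 80%, and 57.5% ± 28.8 in the 49 others, of which 15 were. Low values also occurred at high depth. Cell 70, with 128255 reads, had 13.8% of the stretch in contact, and cell 65, with 119604 reads, had 17.2%. Their contact shares over all covered bins were 26.1% and 27.8%, below the mean of 31.4% ± 5.06 of deep cells.

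CHL1, CNTN6 and CNTN4 tended to be in contact in the same cells. With a gene in contact when its mean ratio was at least 1, all 3 were in contact in 41 of 84 cells (48.8%, 37.7 to 60.0%), 2 in 20, 1 in 11 and none in 12. CHL1 was in contact in 45 cells (53.6%), CNTN6 in 63 (75%) and CNTN4 in 66 (78.6%). Of the cells with CHL1 in contact 42 of 45 (93.3%) also had CNTN6, against 21 of 39 (53.8%) of the cells without CHL1. Of the cells with CNTN6 in contact 42 of 63 (66.7%) had CHL1, against 3 of 21 (14.3%) of those without CNTN6. CNTN6 and CNTN4 without CHL1 were found in 17 cells, whereas CHL1 with just 1 of the others was found in 3 and CHL1 alone in 1. Contact of CHL1 thus came with contact of both others in 41 of its 45 cells. For CNTN3, CNTN1 and CNTN5, which lie far apart, all 3 were in contact in 28 cells (33.3%, 23.4 to 44.5%), 2 in 37, 1 in 15 and none in 4. Among deep cells all 3 genes of the trio were in contact in 24 of 35, and among the others in 17 of 49.

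The genes of the trio varied together across cells, though not in the order of their distances. Over the 84 cells, corrected for the cell's contact share by taking residuals of a linear fit, the share of bins in contact had a Pearson correlation of 0.69 between CNTN6 and CNTN4 (0.73 uncorrected, corrected Spearman 0.76), which start 1 Mb apart. It was 0.43 between CHL1 and CNTN6, which start 0.9 Mb apart (0.50 uncorrected), and 0.53 between CHL1 and CNTN4 at 1.9 Mb (0.60 uncorrected). With CNTN3, over 70 Mb away on the same chromosome, it was 0.30 for CNTN6, 0.19 for CNTN4 and -0.04 for CHL1. Between members on different chromosomes it ran from -0.22 for CHL1 and CNTN5 to 0.17 for CHL1 and CNTN1. These coefficients describe cells of 1 clone that differ in depth. All 6 genes moved with depth. Their Pearson correlation with the cell's contact share was from 0.33 for CNTN1 to 0.51 for CNTN5, and with log10 reads from 0.29 to 0.52 for the same genes. The coefficients between genes were not repeated on thinned cells. The shares rest on 3 bins for CHL1, 4 for CNTN6 and 10 for CNTN4, and how the number of bins bears on the order of the coefficients was not tested.

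**Figure D3:**
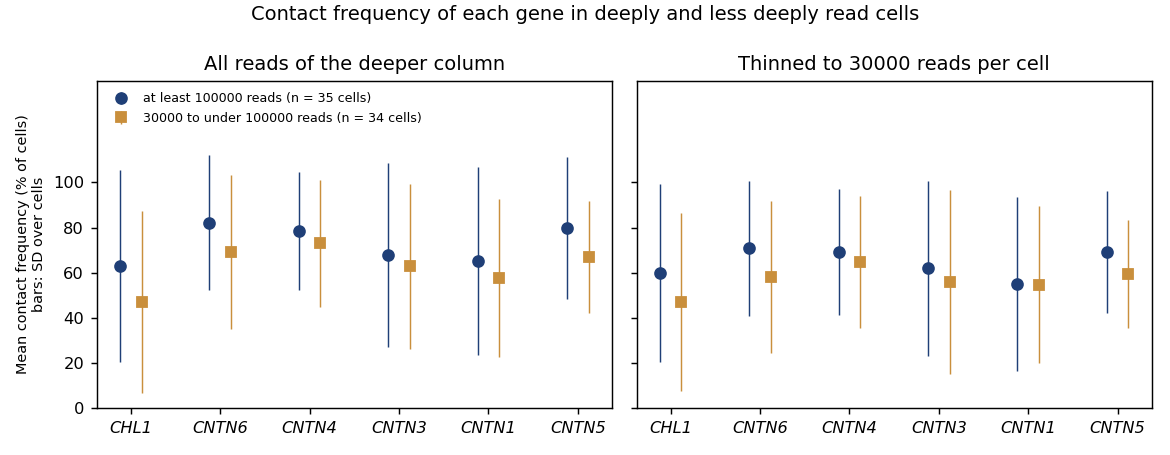
Mean contact frequency of each gene (y axis, percent of cells, bars are the SD over cells) in 35 cells with at least 100000 reads (blue circles) and 34 cells with 30000 to under 100000 reads (yellow squares), with all reads of the deeper column on the left and after thinning each cell to 30000 reads on the right. Deep cells are higher for every gene, by 12.9 points for CHL1 and 0.151 points for CNTN1 after thinning, and the bars overlap throughout.

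Depth was examined by thinning. A ratio of 1 over CHL1 stood for 8.98 reads in the median cell, over CNTN6 for 11.3 and over CNTN4 for 29.5, and the genes had medians of 10.5, 28 and 64.5 reads per cell in that order. Over all reads, contact frequency was 64.8% in deep cells and 38.1% in the 49 others for CHL1, 81.4% and 59.2% for CNTN6, and 78.3% and 59.2% for CNTN4. It was 68.6% in deep cells and 51.0% in the others for CNTN3, 63.4% and 51.0% for CNTN1, and 79.0% and 55.0% for CNTN5. In the 69 cells with at least 30000 reads in the deeper column, thinned to that number, CHL1 had 53.6% (55.1% unthinned), CNTN6 64.5% (75.7%) and CNTN4 67.0% (75.8%), with 15 cells left out. Deep minus other cells was then 12.9 points for CHL1 (60.0 against 47.1%), 12.6 for CNTN6 (70.7 against 58.1%) and 4.44 for CNTN4 (69.1 against 64.7%). It was 6.02 points for CNTN3, 0.151 for CNTN1 and 9.73 for CNTN5. The plot by depth shows that every one of these differences was smaller than the SD over cells, the smallest of which was 23.9 points. That SD is a spread between cells, so it does not show that the differences are negligible. CHL1 was the lowest of the 6 genes after thinning as well, with 53.6% against 54.8% for CNTN1, but not in the deep cells among them, with 60.0% against 54.9%. In the deep cells with partner columns averaged, CHL1 had 64.8% and CNTN1 63.4%. With all reads of the deeper column they had 62.9% for CHL1 and 65.1% for CNTN1, so the lowest gene in deep cells changed with the reads used.

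The cells numbered 1 to 29 and 30 to 86 were also set apart. CHL1 was in contact in 41.4% of the first and 53.3% of the second, CNTN6 in 60.3 and 72.7%, and CNTN4 in 62.1 and 69.8%. CNTN3 had 54.0 and 60.6%, CNTN1 54.5 and 57.1%, and CNTN5 59.1 and 68.1%. The contact share over all covered bins was 27.1% and 28.1% in these sets. All 6 genes were lower in cells 1 to 29, by less than the SD over cells, which is a spread and not the error of a mean. None of cells 1 to 29 was a deep cell, the deepest being cell 24 with 90564 reads. This split and the split by depth therefore overlap, and depth and cell number cannot be told apart here.

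**Figure D4:**
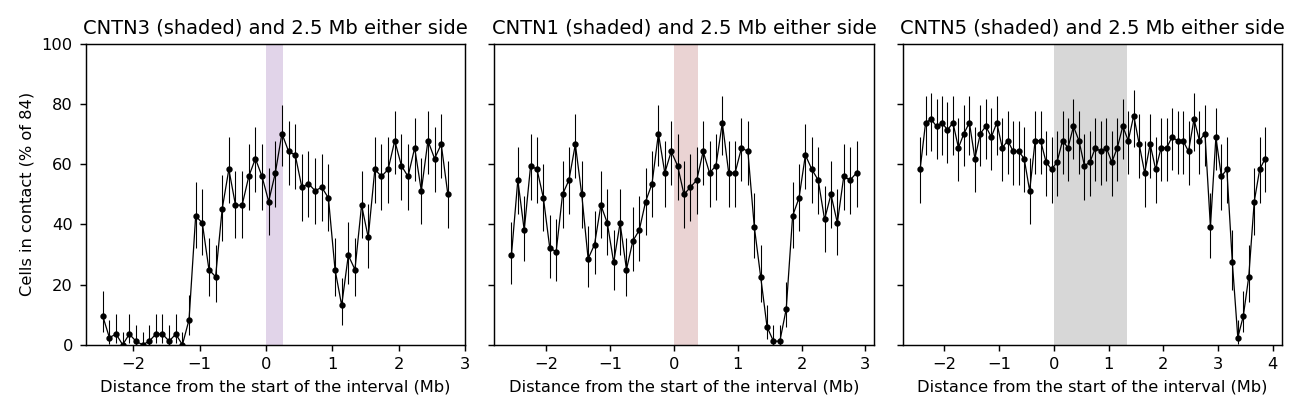
Percent of 84 cells in contact (y axis, exact 95% intervals as bars) per 100 kb bin around CNTN3, CNTN1 and CNTN5, by distance in Mb from the start of each interval (x axis), with the interval shaded and 2.5 Mb shown on each side. CNTN3 and CNTN1 lie within contacted stretches broken by bins as low as 0 and 1.19%, and CNTN5 within an even one that drops to 2.38% well after the gene.

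The surroundings of the other contactins differed from those of the trio, as their profiles show. CNTN5 lay inside contact of nearly even height, with no bin of the gene under 58.3% or over 72.6%, and a drop to 2.38% at 11:102200001 to 102300000. Before CNTN3, no bin from 3:71800001, where the profile starts, to 73200000 was over 9.52%, and 3:72100001 to 72200000 had 0 of 84 cells in contact (exact 95% interval up to 4.3%). Within CNTN3 frequency was 47.6, 57.1 and 70.2% in successive bins. CNTN1 was followed by a low stretch at 12:42500001 to 42900000 with bins between 1.19 and 11.9%. Neighbouring coding genes by RefSeq order are PDZRN3 and FRG2C for CNTN3, MUC19 and PDZRN4 for CNTN1, and JRKL and ARHGAP42 for CNTN5.

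Other chromosome ends were rarely in contact at the distance from the tip at which the trio lies. Between 0.2 and 3.1 Mb from the tip, the start of chromosome 3 had a mean frequency of 66.5%. The 37 other ends with values had a median of 2.25%, and the next highest were the end of chromosome 4 with 35.9%, the start of the joined chromosome 9:22 with 34.3% and the start of chromosome 18 with 32.4%. The trio was chosen for this contact, so the rank is a description.

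**Figure D5:**
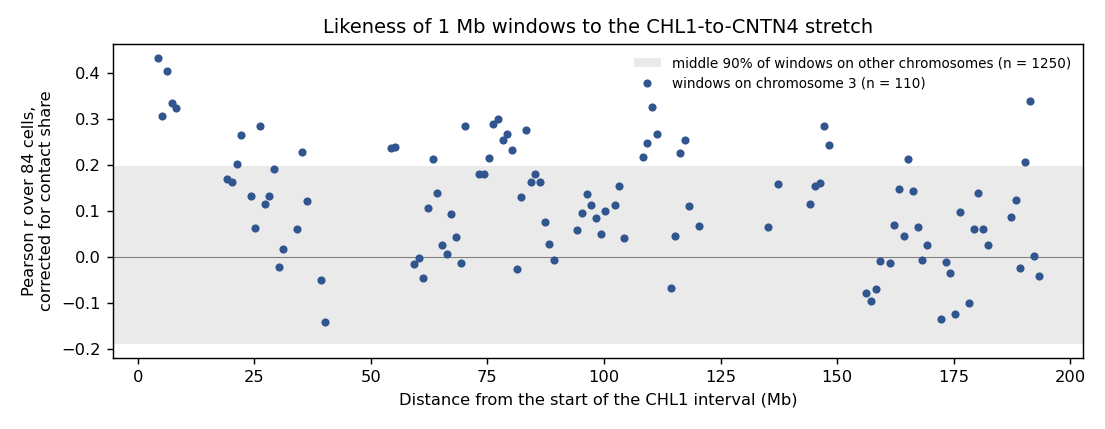
Pearson correlation over 84 cells, corrected for contact share (y axis), between the share of contact from CHL1 to CNTN4 and that of each of 110 windows of 1 Mb on chromosome 3, by distance in Mb from the start of the CHL1 interval (x axis). The grey band holds the middle 90% of 1250 windows on other chromosomes, from -0.19 to 0.20, and the windows nearest the genes lie at 0.31 to 0.43.

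On average, the regions whose contact varied most like that of CHL1 to CNTN4 were its neighbours. Windows of 1 Mb with a mean frequency of 20 to 80% were compared with the 29 bins over the 84 cells, corrected as above. The 5 windows from 3 to 10 Mb had a mean correlation of 0.36 ± 0.05 (SD over windows), the 17 from 10 to 50 Mb 0.11 ± 0.11, the 37 from 50 to 100 Mb 0.13 ± 0.10 and the 51 beyond 100 Mb 0.09 ± 0.12. The 1250 windows on other chromosomes averaged 0.00 ± 0.12. Beyond 10 Mb on chromosome 3 the most alike windows were 3:191000001 to 192000000 with 0.34, 3:110000001 to 111000000 with 0.33 and 3:77000001 to 78000000 with 0.30. On other chromosomes they were 4:105000001 to 106000000 with 0.43, 9:22:11000001 to 12000000 with 0.37 and 4:127000001 to 128000000 with 0.33. These are the highest of many windows, all measured in the same cells. The window on chromosome 4 was as high as the highest of the nearest windows, so a single coefficient of this size did not mark a neighbour.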

How the data were processed

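Single-cell DamID reads reveal GATC sites methylated by the Dam fusion. Per the labels' protocols, DNA of sorted cells was cut with DpnI, ligated to adaptors and amplified. The submitters' processing notes name cutadapt, Bowtie2 2.1.0 and hg19. Not given in the sources used here are the handling of duplicates and the basis of the expectation. 1 table was deposited by the authors, with the ratio of observed to expected reads for 30376 bins (100 kb each); 3792 bins had no value, and 170 bins held only 0. The ratio has no stated scale beyond that, and the table holds 168 of the 172 labelled samples; the others were not analysed here.

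The members, gene lists, alternatives and cell sets were chosen with earlier results of these data known. Partner columns were averaged per cell. A ratio of 1 or more was called contact; a gene's contact frequency is the mean over its bins of the percent of cells in contact, with the SD over cells of each cell's share of bins. Exact Clopper-Pearson 95% intervals are for the number of cells in contact and cover counting error only. Reads amplified by PCR carry no molecular identifiers and may repeat a molecule. No test was made: with 1 group, cells are not replicates. Whole reads were recovered from the ratios (100% of values above 0 were whole within 0.02 of a step), which gave depth and thinning; the recovery was tested on simulated data. Correlations over cells are descriptions. Named are all 6 genes, the highest and lowest bin of each, and the 3 windows most alike on chromosome 3 beyond 10 Mb and on other chromosomes. Alternatives were other cutoffs, scalings, columns, sets of cells, bin widths and calls. The gap, the stretches beyond CNTN4, the chromosome ends and the deep cells with the least contact were picked after their values were seen. The related genes L1CAM, NRCAM, NFASC, CNTN2, PTPRG, PTPRZ1, CNTNAP1, CNTNAP2, CNTNAP4 and CNTNAP5 were not placed on bins, because no hg19 annotation was used here. Upstream sequences, gene order and gene lengths are from RefSeq tables of GRCh38.p14, in which all 6 genes matched by symbol. Python 3.11.15 was used with numpy 2.4.6, pandas 2.3.3, scipy 1.17.1 and matplotlib 3.10.9.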

Additional observations from a re-analysis of the deposited data

How the results depend on the processing

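Of 164 values under 18 planned settings 133 stayed close to those reported, 30 moved and 1 changed sign. Close meant within the exact interval for frequencies and joint contact, and the same bin for the border after CNTN4. For the difference between groups of genes it meant the same sign and within the SD over cells, and for correlations within the SD over windows. The 28 values under 3 settings added after seeing the data all stayed close. The difference of CHL1, CNTN6 and CNTN4 from CNTN3, CNTN1 and CNTN5, 2.07 points, was -0.907 in odd cells. Its limit was the SD over cells of 33.7 points. Only a change of sign or a very large shift could count against it, so its being close does not show that it is stable. By construction frequencies, which for the rest of the first 5 Mb are means over bins (49.4% in the main setting), follow the cutoff. At 0.5 they were 66.3% for CHL1, 78.9% for CNTN6, 78.7% for CNTN4, 67.9% for CNTN1, 75.8% for CNTN5 and 60.1% for the rest of the first 5 Mb, and 66.7% of cells had all 3 of the trio in contact. At 1.5 they were 57.7% for CNTN6 and 53.9% for CNTN5, with 32.1% joint contact. At 2 they were 32.1% for CHL1, 42.3% for CNTN6, 45.4% for CNTN4, 41.7% for CNTN3, 35.5% for CNTN1, 42.0% for CNTN5 and 33.0% for the rest, with 16.7% joint contact. In cells with at least 100000 reads they were 64.8% for CHL1, 81.4% for CNTN6, 78.3% for CNTN4, 79.0% for CNTN5 and 60.4% for the rest, with 68.6% joint contact. Joint contact was 34.5% in cells 1 to 29 and 66.7% when any bin called a gene. The first bin under 20% after CNTN4 began at 4.4 Mb, not 3.1 Mb, at a cutoff of 0.5 and with 5 bins averaged, which is wider than the gap. The first bin under 50% was sought only after the end of CNTN4, from a bin with 11.9% of cells in contact. It stayed at 3.1 Mb in every setting, and since it could hardly move, its counting as close shows little. Without the correction for contact share the correlation was 0.50 at 3 to 10 Mb and 0.18 for other chromosomes. For the sets of cells the cause was not tested, beyond the thinning to 30000 reads. CHL1 was the lowest gene in 14 of the 15 planned settings that gave all 6 genes, the exception being the cells with at least 100000 reads, and in all 3 added ones. The highest gene changed more often. CNTN4 stood above CNTN6 as the highest in cells 1 to 29, at a cutoff of 2 and in cells with at least 30000 reads, thinned or not. In odd cells the highest was CNTN5. Where a cell has few reads, no contact and an undetected contact cannot be told apart, and a call of contact can rest on very few reads. No paired analysis was possible because all samples belong to 1 group; differences between genes were taken within cells.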
